A study of Mus musculus with 6 samples.

Results

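The genes described here are the paired immune receptors of myeloid cells: the Siglec, Cd300, Lilr and Pir, Sirp, Pilr, Trem and Cd200r families with Cd33, Lair1 and the adaptors Tyrobp and Hcst. They were taken by gene symbol, and the rule found 41 genes of the 34652 in the expression table. Their RNA was compared between dLAM and Mono-MΦ, 2 macrophage populations of the cerebrospinal fluid. The cells came from tamoxifen-treated Cx3cr1CreER:mTmG mice 12 days after inoculation with LLC-LeptoM, a lung carcinoma line adapted to the leptomeninges. In these mice Cre is made from the Cx3cr1 locus, and a membrane reporter turns from red to green in any cell where Cre has acted, so green marks past Cx3cr1 activity and not a lineage by itself. dLAM, labelled as resident macrophages, were sorted as CD45+CD11b+F4/80+Ly6C-GFP+ cells (3 libraries). Mono-MΦ, labelled as monocyte-macrophages, were a mixture of CD45+CD11b+F4/80+GFP- cells and CD45+CD11b+F4/80lowLy6C+GFP- cells (3 libraries). All mice carried tumor, the Cre allele, the reporter and tamoxifen, and mouse age and sex, and whether libraries came from separate mice, are not given. The p-values hence reflect how far these libraries differ among themselves, and that spread may be technical.

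Paired receptors come as related proteins that bind similar ligands and signal in opposite ways. Inhibitory members carry a tyrosine motif (ITIM) in a long tail and recruit phosphatases such as SHP-1. Activating members have a short tail and a charged residue in the membrane, and signal through an adaptor with an activating motif (ITAM), which is the product of Tyrobp (DAP12) or Fcer1g. In macrophages of the brain and its borders, this system is best known for Trem2 with Tyrobp in microglia and for Sirpa, the receptor of the "do not eat me" signal Cd47.

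Values are FPKM, read fragments scaled for gene length and library depth, as deposited. Tests used limma on log2(FPKM + 1), with genes of 1 FPKM or more in at least 3 libraries, and a gene counts as higher or lower at an adjusted p under 0.05 over all 11317 genes tested. Log2 fold changes are dLAM minus Mono-MΦ on this scale, which understates changes of genes with low values. Of the 41 genes, 34 were tested, 9 were higher in dLAM, 9 were lower and 16 did not pass. Over all genes tested, 30.5% passed, 19.9% higher and 10.6% lower in dLAM, against 52.9% of the tested receptors and adaptors. The median log2 fold change was -0.09 for the tested members and 0.06 for all genes tested. All 9 higher and all 9 lower members kept their call with median-of-ratios scaling, with quantile normalization, which shifted the median of all genes by -0.11, and on the TPM scale. Activating members went both ways, with 4 of 16 higher and 6 lower. Inhibitory members did as well, with 3 of 10 higher and 2 lower. The median was -0.09 for activating and 0.06 for inhibitory members, and the inhibitory median was -0.05 with median-of-ratios scaling. In 21 of the 34 tested members the groups did not overlap, against 46.2% of all genes tested. Of the 9 higher receptors Cd300lh, Siglech, Lilra5 and Cd200r4 averaged under 1 FPKM in Mono-MΦ, while each of the 9 lower receptors averaged 3.34 FPKM or more in both populations.

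**Figure D1:**
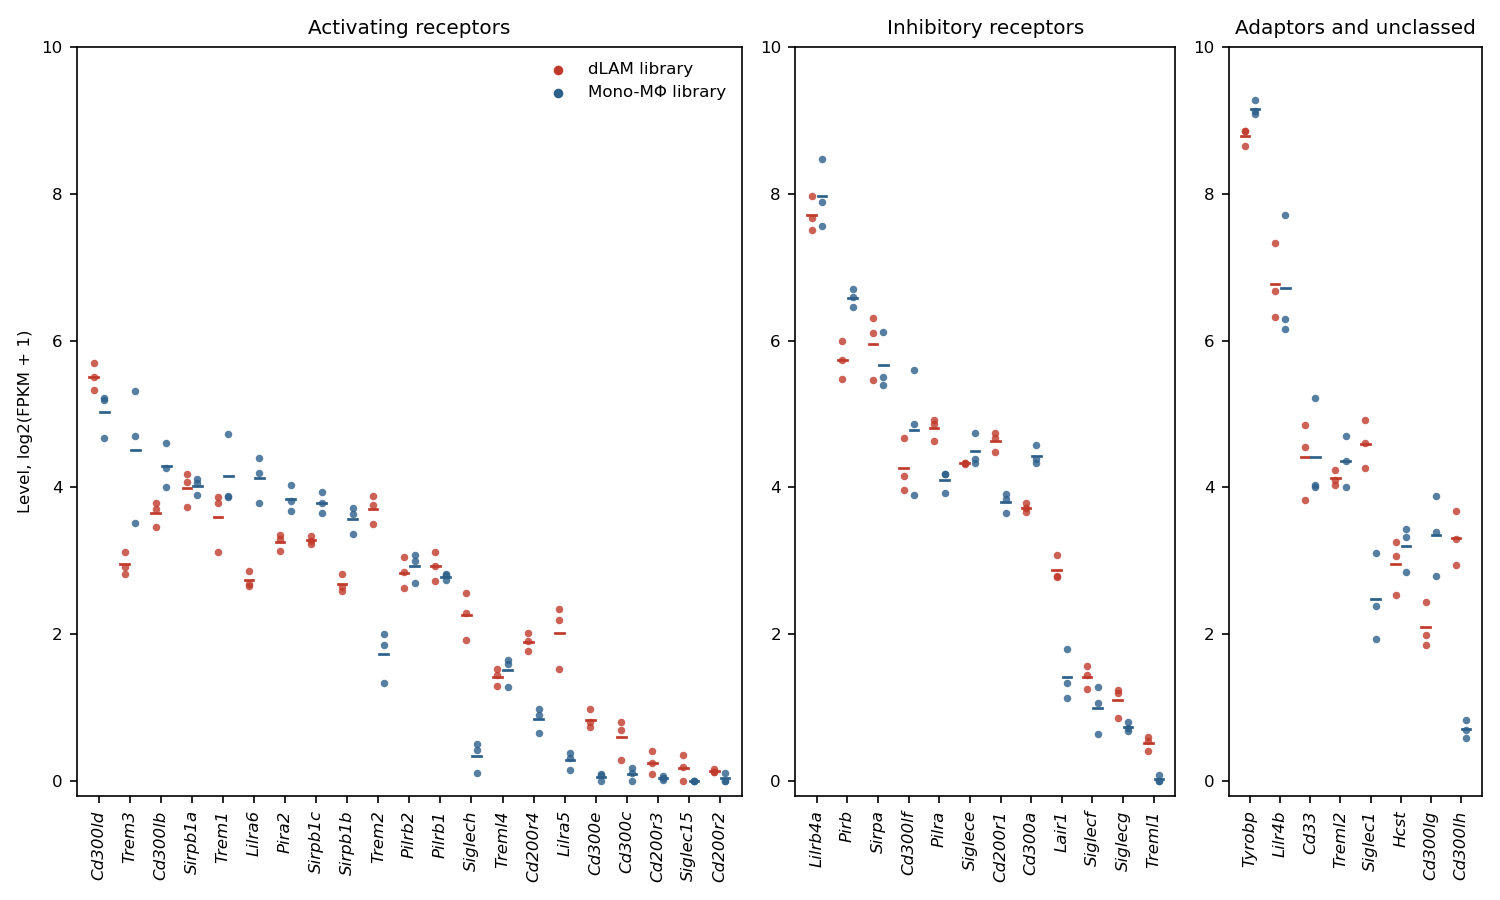
Level of each receptor and adaptor in each library, as log2(FPKM + 1), with dLAM on the left of each pair and Mono-MΦ on the right. Points are single libraries and bars are means of 3 libraries. Siglech, Lilra5 and Cd300lh lie below 1 FPKM in every Mono-MΦ library and above it in every dLAM library, while Lilra6, Pirb and Sirpb1b are lower in dLAM but present in both groups.

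Some facts about the libraries touch several receptors. Markers of other cells differed between the groups: 8 of 8 T cell markers were higher in dLAM, with a summed level of 159 to 200 FPKM in dLAM and 4.61 to 24.6 FPKM in Mono-MΦ. Of the conventional dendritic cell markers 7 of 8 were higher (sums of 118 to 178 FPKM in dLAM, 14.9 to 18.1 FPKM in Mono-MΦ). Of the tested plasmacytoid dendritic cell markers 5 of 6 were higher (42.0 to 49.1 FPKM in dLAM, 9.40 to 32.7 FPKM in Mono-MΦ), as were all 3 tested B cell markers and all 4 tested natural killer cell markers. Of 10 neutrophil markers 5 were lower in dLAM (1290 to 1670 FPKM in dLAM, 2060 to 12100 FPKM in Mono-MΦ). That count was 2 on leaving out dLAM library 1, 2 or 3 or Mono-MΦ library 2, and without a filter. It was also 2 among the 4 libraries with less Y-linked RNA (those other than dLAM library 3 and Mono-MΦ library 2). It was 3 without Mono-MΦ library 3, with quantile normalization, with the replicate number as a block and with a term for Y-linked RNA. Without Mono-MΦ library 1 it was 7, and with median-of-ratios scaling 6. The part of these other cells in the results for receptors, their signalling partners, ligands and sialic acid genes was not tested. Of 8 macrophage markers 4 were higher and 1 lower in dLAM, with sums of 3590 to 5120 FPKM in dLAM and 6900 to 10400 FPKM in Mono-MΦ. Lyz2, which dominates these sums, was lower in dLAM at 4140, 4530 and 3120 FPKM, against 9970, 6580 and 9160 FPKM in Mono-MΦ (log2 fold change -1.12, adjusted p = 0.043), a call lost on leaving out any library except Mono-MΦ library 2. Csf1r was at 219 to 276 FPKM in dLAM and 104 to 147 FPKM in Mono-MΦ, and Cd68 at 119 to 160 FPKM in dLAM and 86.5 to 138 FPKM in Mono-MΦ. Of the genes for the sorted proteins, Adgre1 (F4/80) and Ptprc (CD45) were at 31.4 FPKM or more in every library, and Itgam (CD11b) was at 1.96 to 2.24 FPKM in dLAM and 2.60 to 3.12 FPKM in Mono-MΦ. In RNA from many cells, fewer cells of a type and less RNA per cell cannot be told apart.

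Neither adaptor passed the test. Tyrobp, the ITAM adaptor of most activating members, had the highest level of all 41 genes. It was at 461, 463 and 402 FPKM in dLAM libraries 1 to 3 and at 618, 542 and 556 FPKM in Mono-MΦ libraries 1 to 3. All 3 dLAM libraries lay below all 3 Mono-MΦ libraries, as for 16.9% of all genes tested, but the difference of -0.37 (SE 0.14) did not pass (adjusted p = 0.078). Its 95% interval ran from -0.69 to -0.05, and it passed only without the mean-variance trend in limma (adjusted p = 0.046). Hcst, the DAP10 adaptor that couples to PI3-kinase, was at 4.79, 8.55 and 7.37 FPKM in dLAM and at 9.03, 9.77 and 6.18 FPKM in Mono-MΦ, with overlapping groups (interval -0.77 to 0.28). Fcer1g, the other ITAM adaptor, is no member of the 41 and did not pass (log2 fold change -0.23).

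The Trem genes, which form a cluster of 6 on mouse chromosome 17 (mm10, 48232768 to 48367176), did not move as a block. Trem2, a receptor for lipids, lipoproteins and dying cells, was at 13.7, 12.5 and 10.3 FPKM in dLAM and at 2.61, 1.51 and 3.01 FPKM in Mono-MΦ. Its lowest dLAM library was above its highest Mono-MΦ library, and the mean was 5.11-fold higher in dLAM (log2 fold change 1.98, SE 0.20, adjusted p = 0.00035). Trem3, a Tyrobp-coupled receptor of mouse myeloid cells, went the other way, at 7.68, 6.05 and 6.56 FPKM in dLAM and at 10.4, 25.0 and 38.9 FPKM in Mono-MΦ (log2 fold change -1.56, SE 0.40, adjusted p = 0.023). The Mono-MΦ values were widely spread and followed the order of the summed neutrophil markers, which were 2060, 7170 and 12100 FPKM in Mono-MΦ libraries 1 to 3 and 1670, 1480 and 1290 FPKM in dLAM libraries 1 to 3. The part of neutrophil RNA in this result was not tested. The Trem3 call was lost on leaving out dLAM library 1, 2 or 3 or Mono-MΦ library 2, without a filter, and among the 4 libraries with less Y-linked RNA with adjusted p up to 0.15.

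Trem1, which amplifies inflammatory signals in neutrophils and monocytes, lies next to Trem3 and did not pass (adjusted p = 0.17). It was at 13.6, 7.72 and 12.8 FPKM in dLAM and at 13.6, 25.5 and 13.8 FPKM in Mono-MΦ, so the highest dLAM library equalled the lowest Mono-MΦ library in the digits given, and 1 Mono-MΦ library stood above the rest. Treml2, a receptor of myeloid and B cells, was at 16.1, 17.9 and 15.4 FPKM in dLAM and at 15.0, 19.6 and 25.0 FPKM in Mono-MΦ, with overlap. Treml4, a receptor of splenic macrophages and dendritic cells that binds dead cells, stayed between 1.43 and 2.13 FPKM in all 6 libraries. Within a library, Trem2 RNA relative to Trem1 was 1.01, 1.63 and 0.807 in dLAM and 0.192, 0.0593 and 0.219 in Mono-MΦ. This ratio does not depend on scaling between libraries, and its groups did not overlap.

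**Figure D2:**
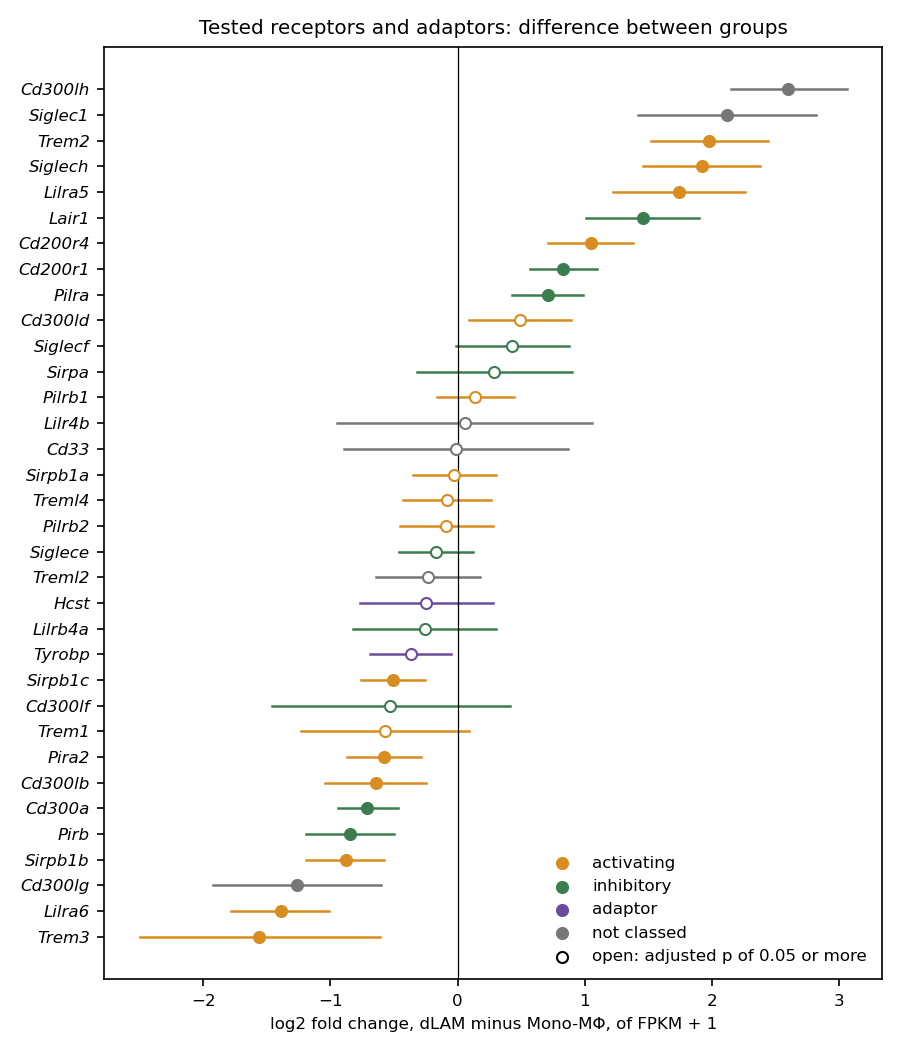
Log2 fold change of the 34 tested members, dLAM minus Mono-MΦ, with 95% intervals from limma; filled points passed at an adjusted p under 0.05, and colors give the signalling class. Activating and inhibitory members occur on both sides of 0, and the values run from 2.60 for Cd300lh to -1.56 for Trem3.

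Siglec receptors bind sialic acid, the sugar that caps cell-surface glycans. Of the 7 Siglec genes counted with Cd33, 5 were tested and 2 were higher in dLAM. Siglec1 (sialoadhesin, chromosome 2, 131069220 to 131086765) is an adhesion receptor of tissue macrophages without a signalling motif of its own. It was at 23.3, 29.3 and 18.2 FPKM in dLAM and at 4.21, 2.83 and 7.62 FPKM in Mono-MΦ, 4.83-fold higher in the mean (log2 fold change 2.12, SE 0.30, adjusted p = 0.0016). Siglech (chromosome 7, 55768178 to 55778925), which signals through Tyrobp and marks plasmacytoid dendritic cells and microglia, was at 4.90, 3.90 and 2.80 FPKM in dLAM and at 0.344, 0.414 and 0.0728 FPKM in Mono-MΦ. Neither gene's groups overlapped, and the Siglech difference was 1.92 (SE 0.20, adjusted p = 0.00042). The plasmacytoid markers Spib, at 2.2 to 3.81 FPKM in dLAM and 0.0866 to 0.411 FPKM in Mono-MΦ, and Klk1, at 2.55 to 3.49 FPKM in dLAM and 0 to 0.0821 FPKM in Mono-MΦ, were higher in the same libraries. Their part in the Siglech difference was not tested.

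Neither Cd33 nor the tested inhibitory Siglec genes, Siglece and Siglecf, passed. Siglece, the main inhibitory Siglec of mouse myeloid cells, was nearly constant in dLAM at 18.9, 19.1 and 19.2 FPKM, against 19.2, 25.8 and 20 FPKM in Mono-MΦ, with a difference between -0.46 and 0.12 on the log2 scale (95% interval). Cd33, a Siglec with an inhibitory tail motif in humans, was at 22.5, 13.2 and 27.8 FPKM in dLAM and at 15.4, 36.3 and 15.0 FPKM in Mono-MΦ. The means were close and the libraries were not, so its interval of -0.89 to 0.87 leaves room for changes in either direction. Siglecf, an eosinophil receptor also found on alveolar macrophages, was at 1.38 to 1.96 FPKM in dLAM and 0.553 to 1.43 FPKM in Mono-MΦ and did not pass (log2 fold change 0.43, interval -0.01 to 0.88, adjusted p = 0.13). Markers of mast cells, basophils and eosinophils summed to 11.1 to 38.9 FPKM in dLAM and 0.557 to 0.887 FPKM in Mono-MΦ, and their part in these values was not tested.

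The Lilr and Pir genes divided by locus. Pirb is the inhibitory receptor of the group and binds MHC class I. Pira2 is one of its activating partners, and Lilra6 is a related gene of the same cluster, with all 3 genes in a row on chromosome 7 (3711409 to 3915503). All 3 were lower in dLAM. Pirb was at 62.9, 43.5 and 52.4 FPKM in dLAM and at 86.6, 103 and 96.0 FPKM in Mono-MΦ (log2 fold change -0.85, SE 0.15, adjusted p = 0.0043). Pira2 was at 9.18, 7.81 and 8.84 FPKM in dLAM and at 15.3, 11.8 and 13 FPKM in Mono-MΦ (log2 fold change -0.58, SE 0.12, adjusted p = 0.011). Lilra6 was at 6.28, 5.31 and 5.41 FPKM in dLAM and at 20.1, 12.8 and 17.4 FPKM in Mono-MΦ, 2.96-fold higher in the Mono-MΦ mean (log2 fold change -1.39, SE 0.17, adjusted p = 0.00076). None of these groups overlapped, and the inhibitory receptor thus moved the same way as its activating relatives. Within a library, Pirb relative to the sum of Pira2 and Lilra6 was 4.07, 3.32 and 3.68 in dLAM and 2.44, 4.19 and 3.16 in Mono-MΦ, with overlap.

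These genes share sequence, which limits how far they can be separated and also shows in front of the genes. Of the 100-base windows of their longest coding transcripts, 86.5% in Pira2, 24.6% in Pirb and 8.5% in Lilra6 also occur in a transcript of another gene. How the authors treated reads with several matches is not given, so these 3 levels are uncertain. In RefSeq promoters (GRCm38.p6), the 250 bases before the start were 94.4% identical between Pira2 and Lilra6, 78.1% between Pirb and Pira2 and 75.7% between Pirb and Lilra6. The shared letters GAGGAAGT lay at -120 from the RefSeq start in Pirb, -148 in Pira2 and -150 in Lilra6. The Pirb block is therefore offset, and both Pirb percentages understate how alike the shared stretch is. Up to 200 bases are shown, ending before the outermost start in RefSeq and GENCODE, because all 3 genes fell together and each holds GAGGAAGT, a form of the PU.1 motif, here in capitals. All lie on the minus strand and are written 5′ to 3′, at chr7:3720392-3720591 for Pirb, chr7:3845052-3845251 for Pira2 and chr7:3915504-3915703 for Lilra6.
Pirb: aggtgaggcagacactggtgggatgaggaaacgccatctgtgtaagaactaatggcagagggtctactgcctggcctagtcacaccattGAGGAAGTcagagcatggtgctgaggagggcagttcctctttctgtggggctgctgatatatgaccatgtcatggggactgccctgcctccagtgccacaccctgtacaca
Pira2: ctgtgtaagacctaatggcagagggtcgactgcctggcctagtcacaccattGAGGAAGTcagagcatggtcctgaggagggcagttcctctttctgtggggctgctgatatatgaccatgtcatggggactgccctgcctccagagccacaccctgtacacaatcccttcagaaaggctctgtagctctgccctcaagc
Lilra6: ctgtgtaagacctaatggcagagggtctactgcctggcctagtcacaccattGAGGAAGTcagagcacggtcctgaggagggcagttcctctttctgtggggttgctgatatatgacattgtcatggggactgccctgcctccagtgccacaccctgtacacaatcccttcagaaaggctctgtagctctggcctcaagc
The motif was searched on both strands in 250 bases before each RefSeq start, and each match also holds the shorter ETS core GGAA. It was found for 5 of the 32 members with a promoter entry (15.6%) and in 2.44% of all 32851 promoters. The other matches were in Cd300ld and Cd300lh, which had positive differences, so the letters did not go with 1 direction. A match is a description of the sequence and not a measured binding site.

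Other members of the Lilr group did not follow Pirb. Lilra5, further along the same chromosome (4237754 to 4243463), encodes an activating receptor and was at 3.56, 4.08 and 1.87 FPKM in dLAM and at 0.242, 0.304 and 0.111 FPKM in Mono-MΦ. It was thus near the floor in Mono-MΦ, where it rested on an estimated 20 fragments over 3 libraries, against 266 in dLAM (log2 fold change 1.74, SE 0.22, adjusted p = 0.0010). Lilrb4a (gp49B, chromosome 10), an inhibitory receptor that binds fibronectin, had the highest level of all receptors. It was at 203, 180 and 249 FPKM in dLAM and at 236, 353 and 187 FPKM in Mono-MΦ, with overlap (interval -0.82 to 0.30). Its neighbour Lilr4b (gp49A), which lacks the inhibitory motif, was at 101, 79.3 and 160 FPKM in dLAM and at 77.2, 209 and 70.4 FPKM in Mono-MΦ. All Lilrb4a windows recur in another annotated gene, Gm49339 or Lilr4b, so its level is uncertain.

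Cd300 receptors bind phospholipids exposed on dying cells. Of 8 Cd300 genes, 6 were tested, 1 was higher in dLAM and 3 were lower. Cd300lh, which RefSeq lists as Cd300ld3, had the largest log2 fold change of the 34 tested members, a rank that depends on the pseudocount. It was at 8.81, 11.8 and 6.71 FPKM in dLAM and at 0.772, 0.501 and 0.621 FPKM in Mono-MΦ, a 14.4-fold higher mean, beside 14.5-fold for Lilra5 (log2 fold change 2.60, SE 0.19, adjusted p = 0.00011). GENCODE M21 has no gene of the symbol Cd300lh, so the windows it shares with other genes were not counted, and its level is uncertain. Cd300ld, its closest relative here by promoter and an activating receptor of mouse myeloid cells, was expressed in both groups, at 50.6, 44.5 and 39.3 FPKM in dLAM and at 36.1, 35.5 and 24.4 FPKM in Mono-MΦ. Its groups did not overlap, but the difference of 0.49 (SE 0.17) did not pass (adjusted p = 0.068), except with the replicate number as a block (adjusted p = 0.035). The 250-base promoters of both genes were 62.5% identical, against 40.8% to 50.5% for all other pairs of Cd300 genes compared. Counted from the RefSeq starts, GAGGAAGT lay at -187 in Cd300lh and -143 in Cd300ld. The blocks are therefore offset, and 62.5% understates how alike the shared stretch is. The bases before each gene's outermost start follow, with the PU.1 motif GAGGAAGT in capitals, because this block is shared by a gene that rose and one that did not pass. Both lie on the minus strand, at chr11:115048410-115048580 for Cd300lh and chr11:114989923-114990122 for Cd300ld.
Cd300lh: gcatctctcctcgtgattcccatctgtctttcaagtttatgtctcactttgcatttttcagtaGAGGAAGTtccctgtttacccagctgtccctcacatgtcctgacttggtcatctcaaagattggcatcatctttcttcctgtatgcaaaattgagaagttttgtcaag
Cd300ld: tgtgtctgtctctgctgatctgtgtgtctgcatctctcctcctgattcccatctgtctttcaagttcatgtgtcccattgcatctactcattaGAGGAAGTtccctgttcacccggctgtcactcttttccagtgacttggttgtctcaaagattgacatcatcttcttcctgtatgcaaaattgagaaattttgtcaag
Both windows hold the capital block followed by the same bases tccctgtt. In these data the shared letters stood beside levels that differed 14.4-fold between the populations for Cd300lh and 1.40-fold for Cd300ld.

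The inhibitory Cd300a (chromosome 11, 114890041 to 114904654) was lower in dLAM, at 11.7, 12.2 and 12.8 FPKM against 22.9, 19.9 and 19.2 FPKM in Mono-MΦ (log2 fold change -0.71, SE 0.10, adjusted p = 0.0019). Its activating neighbour Cd300lb was lower too, at 12.1, 12.8 and 9.96 FPKM in dLAM and at 23.4, 15.1 and 18.3 FPKM in Mono-MΦ (log2 fold change -0.64, SE 0.17, adjusted p = 0.025). The Cd300a call held in all 17 alternatives, while the Cd300lb call was lost without a filter and on leaving out each library in turn except Mono-MΦ library 2 (adjusted p up to 0.085). Cd300lg, an endothelial adhesion receptor in mice that lies elsewhere on the chromosome, was at 2.61, 4.44 and 2.97 FPKM in dLAM and at 13.8, 5.92 and 9.45 FPKM in Mono-MΦ (log2 fold change -1.26, adjusted p = 0.013). That call was lost without dLAM library 1 (adjusted p = 0.054), and 5 endothelial markers summed to 4.27 to 4.59 FPKM in dLAM and 2.11 to 2.79 FPKM in Mono-MΦ, with Tek and Cldn5 at or below 0.0574 FPKM in all libraries. Cd300lf, the other inhibitory member, was at 16.8, 14.6 and 24.4 FPKM in dLAM and at 13.9, 47.6 and 28.1 FPKM in Mono-MΦ, with overlap. It passed as lower only without Mono-MΦ library 1 (log2 fold change -0.97, adjusted p = 0.040).

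Of the 4 Sirp genes, Sirpb1b and Sirpb1c were lower in dLAM, and Sirpa and Sirpb1a did not pass. Sirpa, the inhibitory receptor, was at 77.9, 67.9 and 43.2 FPKM in dLAM and at 41.0, 68.5 and 44.3 FPKM in Mono-MΦ, so the groups overlapped and the difference of 0.29 (interval -0.32 to 0.90) did not pass. Sirpb1b was at 5.04, 5.24 and 6.08 FPKM in dLAM and at 9.27, 12.2 and 11.4 FPKM in Mono-MΦ, 2.01-fold higher in the Mono-MΦ mean (log2 fold change -0.88, SE 0.13, adjusted p = 0.0021). Sirpb1c was at 9.07, 8.37 and 8.68 FPKM in dLAM and at 12.8, 14.3 and 11.6 FPKM in Mono-MΦ (log2 fold change -0.51, SE 0.11, adjusted p = 0.010). Sirpb1a was at 15.9, 17.1 and 12.3 FPKM in dLAM and at 16.3, 15.7 and 13.9 FPKM in Mono-MΦ, and did not pass. Both called genes were lower in dLAM in every library, while Sirpb1a overlapped. The 3 Sirpb1 genes couple to Tyrobp and share 25.4% (Sirpb1a), 50.2% (Sirpb1b) and 37.0% (Sirpb1c) of their 100-base windows with each other, so their separate levels are uncertain. The ratio of Sirpa to their sum was 2.59, 2.21 and 1.59 in dLAM and 1.07, 1.62 and 1.2 in Mono-MΦ, which overlapped only between dLAM library 3 and Mono-MΦ library 2.

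The Pilr pair separated clearly. Pilra, the inhibitory receptor for sialylated proteins, was at 29.2, 28.1 and 23.9 FPKM in dLAM and at 14.2, 17.1 and 17.1 FPKM in Mono-MΦ, a 1.68-fold higher mean (log2 fold change 0.71, SE 0.12, adjusted p = 0.0037). Its activating partner Pilrb1 was at 6.58, 7.73 and 5.61 FPKM in dLAM and at 5.65, 6.05 and 5.98 FPKM in Mono-MΦ. Pilrb2 was at 6.19, 7.25 and 5.18 FPKM in dLAM and at 5.50, 6.95 and 7.46 FPKM in Mono-MΦ. Neither activating gene passed, with intervals of -0.16 to 0.44 for Pilrb1 and -0.45 to 0.28 for Pilrb2. Within a library the ratio of Pilra to the sum of both Pilrb genes was 2.28, 1.88 and 2.21 in dLAM and 1.27, 1.32 and 1.27 in Mono-MΦ, and the groups did not overlap. Unlike the Pir and Sirpb1 genes, these 3 shared at most 4.6% of their windows with other genes. Their promoters are shown because the genes lie side by side on chromosome 5, only Pilra differed, and the sequences before the genes are nearly the same. In the bases before each gene's outermost start, on the minus strand, capitals mark bases of Pilra that differ from or have no partner in Pilrb1, bases of Pilrb1 likewise against Pilra, and bases of Pilrb2 that differ from Pilrb1. The windows are chr5:137836282-137836481 for Pilra, chr5:137858107-137858299 for Pilrb1 and chr5:137871816-137872008 for Pilrb2.
Pilra: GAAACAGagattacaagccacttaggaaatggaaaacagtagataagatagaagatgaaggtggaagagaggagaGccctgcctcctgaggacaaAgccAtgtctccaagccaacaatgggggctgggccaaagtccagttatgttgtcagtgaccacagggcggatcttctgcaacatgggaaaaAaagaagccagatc
Pilrb1: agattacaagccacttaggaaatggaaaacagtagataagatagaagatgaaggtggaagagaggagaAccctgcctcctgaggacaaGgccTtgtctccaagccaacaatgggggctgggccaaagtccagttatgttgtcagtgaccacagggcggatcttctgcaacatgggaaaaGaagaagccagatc
Pilrb2: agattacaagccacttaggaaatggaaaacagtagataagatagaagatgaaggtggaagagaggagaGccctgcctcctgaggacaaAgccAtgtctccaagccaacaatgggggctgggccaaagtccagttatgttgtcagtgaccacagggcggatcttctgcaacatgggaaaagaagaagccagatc
Pilra matched Pilrb1 at 189 of the 193 bases of the Pilrb1 window, and Pilrb2 differed from Pilrb1 at 3. Counted back from the RefSeq starts instead, which lie further downstream for both Pilrb genes, 250 bases of Pilra and Pilrb1 were 63.2% identical and those of Pilrb1 and Pilrb2 98.4%.

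**Figure D3:**
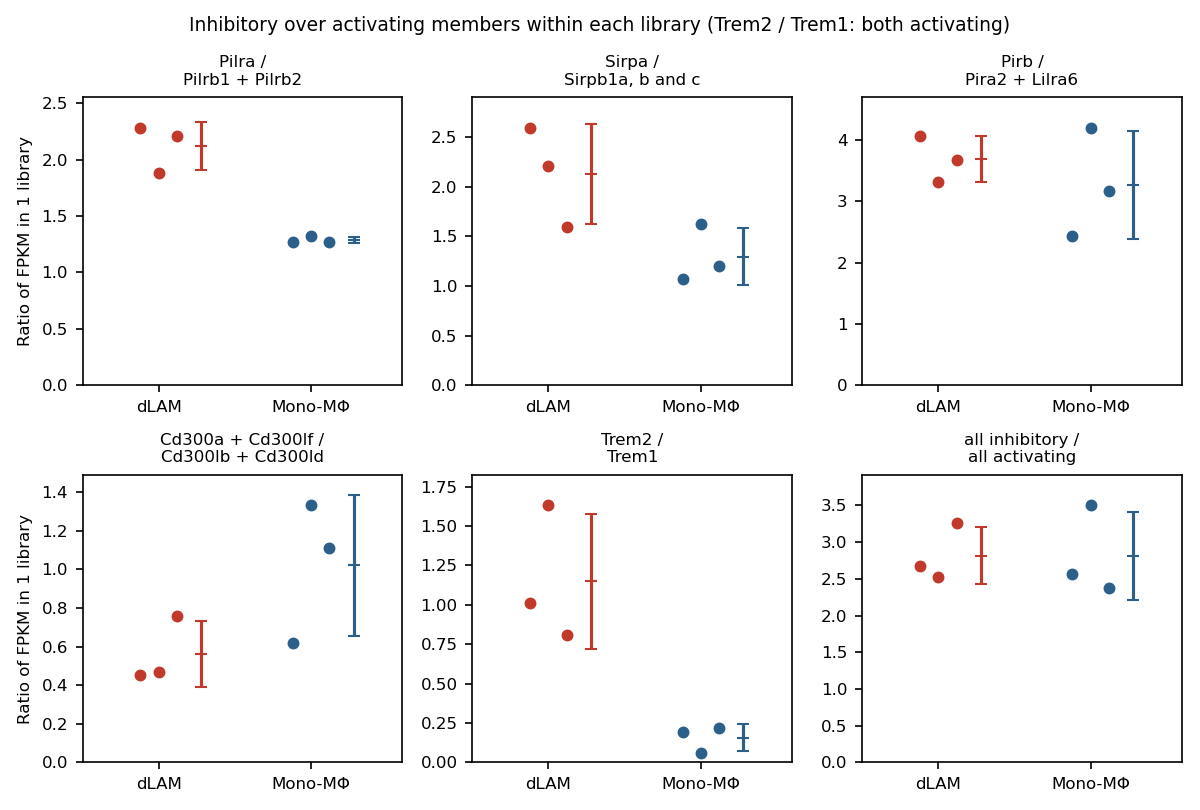
Ratio of FPKM within each library for related receptors, with dLAM left and Mono-MΦ right; bars give the mean and SD of 3 libraries. The Pilra ratio (1.88 to 2.28 in dLAM, 1.27 to 1.32 in Mono-MΦ) and the Trem2 ratio separate the groups, while the ratio of all inhibitory to all activating members overlaps.

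Both tested Cd200 receptors, Cd200r1 and Cd200r4, and Lair1 were higher in dLAM, while Cd200r2 and Cd200r3 were too low to be tested. Cd200r1 (chromosome 16, 44765736 to 44794978) inhibits through Dok proteins and was at 25.8, 21.4 and 24.6 FPKM in dLAM and at 11.6, 14 and 13.4 FPKM in Mono-MΦ (log2 fold change 0.83, SE 0.11, adjusted p = 0.0014). Cd200r4, a Tyrobp-coupled relative and neighbour, was at 3.04, 2.74 and 2.40 FPKM in dLAM and at 0.863, 0.981 and 0.579 FPKM in Mono-MΦ (log2 fold change 1.05, SE 0.14, adjusted p = 0.0014). Lair1, an inhibitory receptor for collagens and C1q, was at 5.91, 5.83 and 7.41 FPKM in dLAM and at 1.53, 1.19 and 2.47 FPKM in Mono-MΦ, a 3.69-fold higher mean (log2 fold change 1.46, SE 0.19, adjusted p = 0.0012). No groups overlapped in these 3 genes, and their calls held in every alternative that tested them. The activating relative gained more than the inhibitory receptor, so the ratio of Cd200r1 to Cd200r4 was 8.48, 7.81 and 10.2 in dLAM and 13.5, 14.3 and 23.1 in Mono-MΦ. Lair1 is also made by T and natural killer cells, whose markers were higher in the same libraries, and their part was not tested.

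The 7 members below the filter were Cd200r2, Cd200r3, Cd300c, Cd300e, Siglec15, Siglecg and Treml1. All stayed at or below 1.37 FPKM in every library. Siglecg, an inhibitory receptor of B cells, was at 0.816 to 1.37 FPKM in dLAM and 0.601 to 0.739 FPKM in Mono-MΦ, while the B cell marker Cd79a was at 3.12 to 7.52 FPKM in dLAM and 0.244 to 0.524 FPKM in Mono-MΦ. Without a filter 18.0% of 22145 genes passed. In that fit Cd300e, an activating receptor of non-classical monocytes, passed as higher in dLAM (adjusted p = 0.0024). It was listed at 0.745, 0.662 and 0.964 FPKM in dLAM and at 0.0699, 0 and 0.0563 FPKM in Mono-MΦ. Treml1, a platelet receptor, also passed (adjusted p = 0.0044), at 0.325, 0.521 and 0.452 FPKM in dLAM and 0, 0.0570 and 0 FPKM in Mono-MΦ. Of 5 platelet markers 2 were tested and 1, Pf4, was higher in dLAM, with sums of 40.5 to 55.9 FPKM in dLAM and 2.88 to 15.1 FPKM in Mono-MΦ. Pf4 was at 39.0 to 52.3 FPKM in dLAM and 2.09 to 11.3 FPKM in Mono-MΦ, while Ppbp (0.600 to 2.75 FPKM in dLAM, 0.263 to 1.74 FPKM in Mono-MΦ) and Gp1bb (0.0969 to 0.228 FPKM in dLAM, 0.171 to 1.44 FPKM in Mono-MΦ) overlapped. Cd300e rested on an estimated 65 fragments in dLAM and 4 in Mono-MΦ, and Siglec15, a receptor of osteoclasts, on 6 fragments in dLAM and 0 in Mono-MΦ.

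Set against each other as a ratio of summed levels, inhibitory and activating receptors did not separate the populations. The summed level of the 21 activating genes was 171, 157 and 141 FPKM in dLAM and 175, 186 and 181 FPKM in Mono-MΦ. That of the 12 inhibitory genes was 455, 396 and 460 FPKM in dLAM and 448, 652 and 429 FPKM in Mono-MΦ. The activating sum was lower in every dLAM library, and the inhibitory sum overlapped. The ratio of inhibitory to activating sums was 2.67, 2.52 and 3.26 in dLAM and 2.57, 3.50 and 2.37 in Mono-MΦ, with means of 2.82 ± 0.389 and 2.81 ± 0.606 (SD, n = 3 each). Lilrb4a supplies much of the inhibitory sum. Without it the ratio was 1.48, 1.37 and 1.5 in dLAM and 1.22, 1.61 and 1.33 in Mono-MΦ, which still overlapped. The composition within the activating class differed more than its sum: Trem2, Siglech, Lilra5 and Cd200r4 were higher in dLAM, and Trem3, Lilra6, Pira2, Cd300lb, Sirpb1b and Sirpb1c were lower.

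Part of the spread within groups followed 1 library of each group. dLAM library 3 and Mono-MΦ library 2 had more Y-linked RNA than the others, with Ddx3y at 10.1 and 10.6 FPKM, against 2.10 to 2.21 FPKM in the other dLAM and 1.56 to 2.68 FPKM in the other Mono-MΦ libraries. Cd33, Lilr4b, Lilrb4a, Cd300lf, Siglece and Sirpb1b were highest of their group in exactly these libraries, 17.6% of the 34 tested members and 22.2% of all genes tested. Cd300lb, Cd300lh, Siglec1, Trem2 and Tyrobp were lowest there, 14.7% of members and 13.4% of all genes. Both shares are close to those of all genes. Among the 4 libraries with less Y-linked RNA, 10 members were higher and 7 lower in dLAM. In these, Sirpa passed as higher (log2 fold change 0.76, adjusted p = 0.016), while Trem3 and Sirpb1c no longer passed. The other 2 libraries are 1 per group and allow no test.

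**Figure D4:**
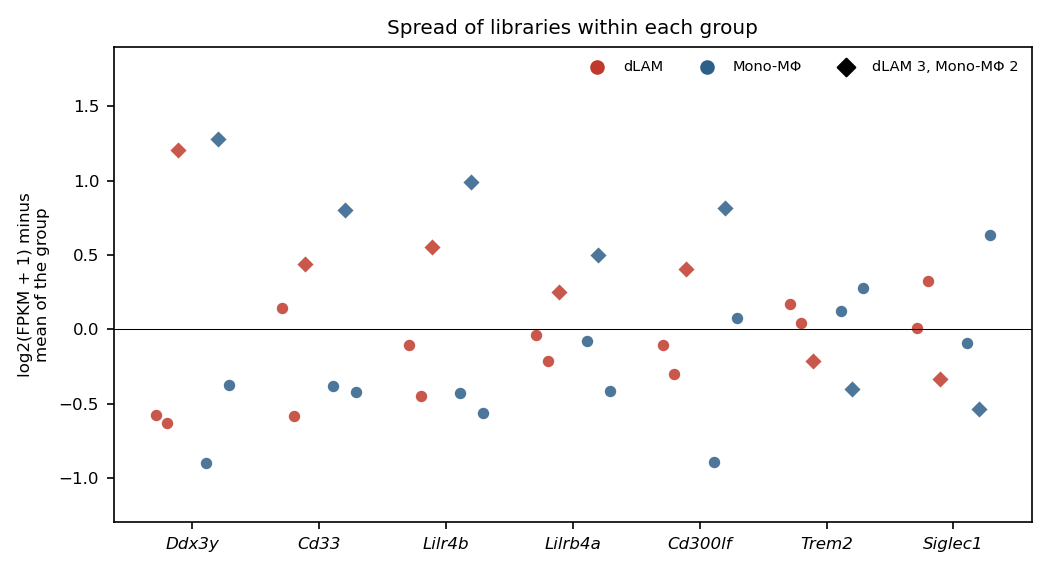
Log2(FPKM + 1) of each library minus the mean of its group for Ddx3y and 6 receptors, dLAM left and Mono-MΦ right; diamonds are dLAM library 3 and Mono-MΦ library 2. The diamonds are the highest points of both groups for Cd33, Lilr4b, Lilrb4a and Cd300lf and the lowest for Trem2 and Siglec1.

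Genes that carry the signals onward, taken from a fixed list, also went both ways. Of 18 genes downstream of ITAM adaptors 4 were higher and 6 lower in dLAM (median log2 fold change -0.13, against 0.06 over all genes). These were 55.6% of the list, against 30.5% of all genes tested. Fyn, a Src kinase, was at 18.7, 20.2 and 20.7 FPKM in dLAM and at 7.27, 6.25 and 4.76 FPKM in Mono-MΦ (log2 fold change 1.57, adjusted p = 0.00026). The adaptors Lat2 and Pik3ap1 were higher by 1.2 and 1 on the log2 scale. The lower genes included core kinases of the pathway. The Src kinases Fgr and Lyn were lower by log2 fold changes of -0.64 and -0.62, and Card9, which links Syk to NF-kB, by -0.60. Lyn was at 85.3, 76.6 and 77.0 FPKM in dLAM and at 131, 112 and 126 FPKM in Mono-MΦ. Syk itself was at 36.7, 37.7 and 37.6 FPKM in dLAM and at 52.8, 55.4 and 46.1 FPKM in Mono-MΦ (log2 fold change -0.45, adjusted p = 0.012). On the TPM scale 4 genes of this list were lower, Syk and Cbl no longer among them, and 3 were lower in the fit to the 4 libraries low in Y-linked RNA. Fyn is also a T cell kinase, and dLAM libraries held more RNA of T cell markers, as given above. The part of T cell RNA in the Fyn difference was not tested.

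Of 12 genes recruited by inhibitory receptors 5 were higher and 1 lower, against 19.9% higher and 10.6% lower of all genes tested. The median of these 12 genes was 0.34, against 0.06 over all genes. Dok2, an adaptor of Cd200r1 signalling, had the largest difference at 19.3, 18.7 and 17.1 FPKM in dLAM and 6.37, 6.22 and 5.61 FPKM in Mono-MΦ (log2 fold change 1.45, SE 0.10, adjusted p = 8.6e-05). Rasa1, the Ras-GAP that Dok proteins bind, was higher by 0.59 and the adaptor Sh2d1b1 by 0.45. Dok3 was lower, with a log2 fold change of -0.76. Ptpn6, which encodes the phosphatase SHP-1, was at 139, 158 and 116 FPKM in dLAM and at 147, 116 and 144 FPKM in Mono-MΦ and did not pass. The Sh2d1b1 call was lost in 11 of 17 alternatives, among them each of 3 scalings and the omission of any library except Mono-MΦ library 2. The count of higher genes was 2 without dLAM library 2, and 3 without dLAM library 1, without Mono-MΦ library 3, with median-of-ratios scaling and among the 4 libraries with less Y-linked RNA.

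**Figure D5:**
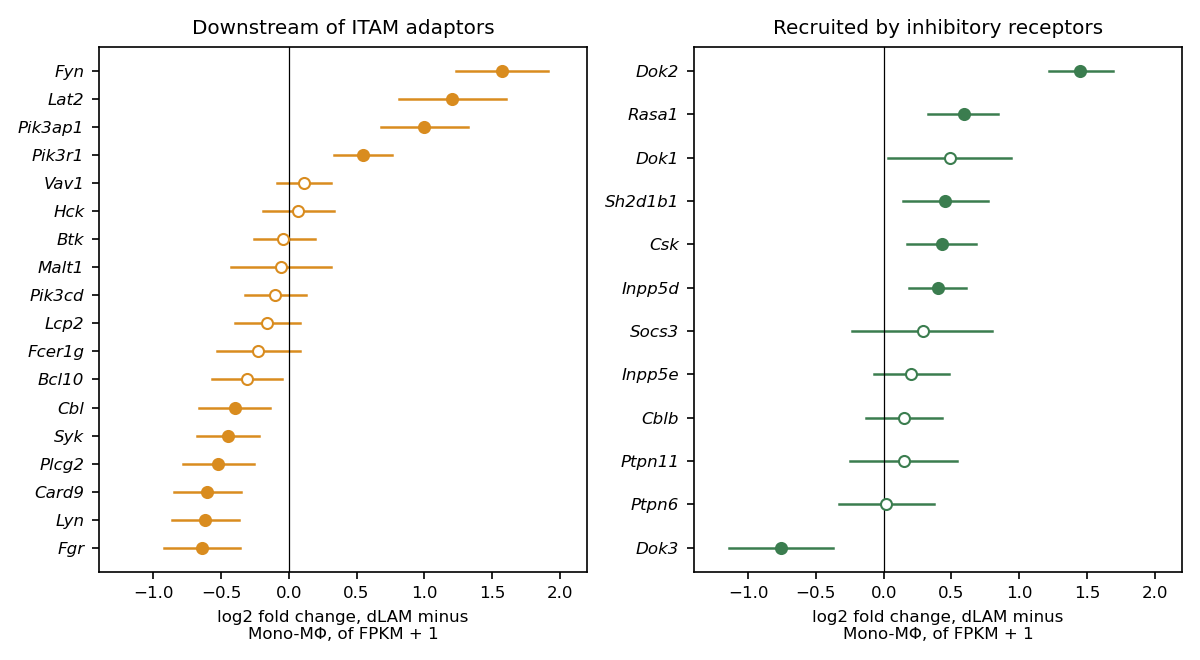
Log2 fold change, dLAM minus Mono-MΦ, of signalling partners, with 95% intervals from limma; filled points passed at an adjusted p under 0.05. Left, genes downstream of ITAM adaptors run from 1.57 (Fyn) to -0.64 (Fgr). Right, genes listed as partners of inhibitory receptors run from 1.45 (Dok2) to -0.76 (Dok3).

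Among 13 tested genes of a fixed list of ligands and related genes, 6 were higher and 4 lower in dLAM (median 0.29). These were 76.9% of those tested, against 30.5% of all genes tested, and not every listed gene binds a receptor described here. C1qa, a chain of the Lair1 ligand C1q, and Apoe, a lipoprotein bound by Trem2, were among the 3 largest log2 fold changes, with Apoe at 698, 696 and 628 FPKM in dLAM and 123, 125 and 238 FPKM in Mono-MΦ. Cd200, the ligand of Cd200r1, was higher too at 1.49, 1.9 and 1.42 FPKM in dLAM and 0.0657, 0.0320 and 0.115 FPKM in Mono-MΦ. Its fold of means, 22.7, exceeds the 4.16 of Apoe, but its log2 fold change of 1.28 is the more reduced by the pseudocount. Gas6, the other of the 3, is a ligand of TAM receptors, which are not among the receptors described here. It was at 31.5, 26.5 and 15.2 FPKM in dLAM and listed at 0.113, 0 and 0.136 FPKM in Mono-MΦ. Cd177, Anxa1 and the Lilrb4a ligand Fn1 (fibronectin) had the largest falls, with Fn1 at 520, 423 and 467 FPKM in dLAM and 1030, 1030 and 847 FPKM in Mono-MΦ. Anxa1 no longer passed among the 4 libraries with less Y-linked RNA (adjusted p = 0.061). Among 17 genes of sialic acid synthesis, transfer and removal, 5 were higher and 2 lower (median 0.22). These were 41.2% of that list, against 30.5% of all genes tested, of which 19.9% were higher and 10.6% lower. St6gal1, which makes the alpha-2,6-linked sialic acid bound by several Siglecs, was at 7.79, 6.67 and 6.35 FPKM in dLAM and at 1.3, 0.846 and 1.18 FPKM in Mono-MΦ (log2 fold change 1.91, SE 0.14, adjusted p = 0.00010). St6galnac4 and Cmah were higher by 0.81 and 0.65, and St3gal4 and St8sia4 were lower, with log2 fold changes of -0.40 and -0.37. The higher count was 2 without dLAM library 1 or 3, and 3 without dLAM library 2, without Mono-MΦ library 3, without a filter and among the 4 libraries with less Y-linked RNA. With quantile normalization 2 genes of this list were higher and 3 lower, and on the TPM scale 5 were higher and 0 lower. The Cmah call was lost in 8 of 16 alternatives, and the falls of St3gal4 and St8sia4 were lost on leaving out dLAM library 1, 2 or 3.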

How the data were processed

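Per the labels' protocols, cells were sorted by flow cytometry, total RNA was isolated, and RNA with an integrity number above 7 was sequenced as 150-bp read pairs. The authors deposited FPKM values in 1 table with 1 column per library. FastQC, HISAT2, featureCounts and mm10 appear in the list of tools and builds per the submitters' processing notes. The sources used here do not give versions, annotation, strand or the handling of multi-mapped reads. Levels of genes that overlap another gene are therefore uncertain.

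From the steps of low values and GENCODE M21 exon lengths, library depth was estimated at 1.23e+07 to 1.70e+07 fragments. In each library 40.7% to 44.6% of values below 20 reads were whole within 0.02, too few to rebuild counts, and the test was made on FPKM. For 2 kb of exon 1 read is worth 0.0294 to 0.0407 FPKM.

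Log2(FPKM + 1) was fitted in limma 3.58.1 (R 4.3.3) with empirical Bayes moderation and a mean-variance trend, after a filter of 1 FPKM in 3 libraries, with Benjamini-Hochberg adjustment over all genes tested. Alternatives were another pseudocount, other filters and scalings, no trend, a replicate block, a term for Y-linked RNA and leaving out libraries. Members and lists were chosen with earlier results of these data known. Values in all libraries are given for members that passed or averaged 5 FPKM in either group, and per related list the 3 largest rises and falls are named; Syk, Ptpn6 and Fcer1g were added for their role, and Cd200 and Lyz2 after their values were seen. Coordinates are GENCODE M21 on mm10. Promoters are RefSeq GRCm38.p6, and 32 of 41 members had an entry. Besides GAGGAAGT, 5 motifs were searched: GGAA was in all 32 members and 93.4% of all promoters, the ISRE half-site motif in 18.8% and 2.98%, CANNTG in 71.9% and 66.2%, TGANTCA in 3.12% and 6.75%, and TATAAA in 9.38% and 12.4%. Alignment used Biopython 1.88, and plots matplotlib 3.10.9 in Python 3.11.15.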

Additional observations from a re-analysis of the deposited data

How the results depend on the processing

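Of the 18 called members, 14 kept call and direction in all alternatives that tested them, and the 4 that lost the call at least once were Cd300lb, Cd300lg, Sirpb1c and Trem3. No member was called in the opposite direction. Of the 16 tested members that did not pass, 12 stayed so in every alternative, and Cd300ld, Cd300lf, Sirpa and Tyrobp passed in 1 each. Leaving out single libraries gave 9 members higher each time and 6 to 9 lower. With the 5 FPKM filter, 1 activating member was higher, since fewer genes were tested, and 1247 of all genes were higher. Over all genes, 2249 were higher and 1204 lower as deposited, or 65.1% higher. With median-of-ratios scaling 1798 were higher and 1665 lower (51.9% higher), and with quantile normalization 1799 and 1702 (51.4%). Leaving out single libraries gave 1590 to 2096 higher and 780 to 1220 lower, the lowest of both without dLAM library 2. In the fit to the 4 libraries low in Y-linked RNA, 1480 genes were higher in dLAM and 780 lower; the cause was not tested. Same-numbered libraries deviated from their group means with correlations of 0.189, -0.147 and -0.0887. With deviations taken within groups of 3, such values cannot show whether equal numbers mean a shared mouse or batch. With a replicate block 1860 genes were higher and 999 lower, among members 10 and 9, and not every library correlated best with its own number. Depth limits Cd200r2, Cd300c, Siglec15 and Treml1 most, at no more than 23.6 estimated fragments in either group.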
